A study of Arabidopsis thaliana with 57 samples.

Results

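The 7 genes described here encode relatives of the light-harvesting antenna proteins that protect the photosynthetic membrane and do little or no light harvesting: the early light-induced proteins ELIP1 (AT3G22840) and ELIP2 (AT4G14690), the stress-enhanced proteins SEP1 (AT4G34190) and SEP2 (AT2G21970), the one-helix proteins OHP1 (AT5G02120) and OHP2 (AT1G34000), and PSBS (AT1G44575). They were taken by locus identifier as relatives in this protein family, with earlier results of these data known, and are 7 of the 28775 genes of the table. All 7 were among the 19010 genes with a mean value of at least 3 that were tested. The antenna family binds chlorophyll in the thylakoid membrane. ELIPs accumulate for a short time when absorbed light exceeds what photosynthesis can use and are thought to hold free chlorophyll. OHP1 and OHP2 work together in building the photosystem II reaction centre, and PSBS senses acidification of the thylakoid lumen and switches on the dissipation of excess energy as heat. The SEP proteins are less well characterised.

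RNA was sequenced from rosette leaves of wild-type Arabidopsis thaliana of the accession Col-0, taken on day 18. Growth conditions were 22 °C in the day, 18 °C in the night and a light intensity of 120 µmol m-2 s-1. The 8 stresses were cold (12 °C and 8 °C at 80 µmol m-2 s-1, less light than the growth condition), cold with high light (the same temperatures at 200 µmol m-2 s-1), high light (350 µmol m-2 s-1), heat (27 °C and 23 °C), heat with high light, drought, heat with drought, and humidity (trays sealed with an excess of water). At the end-point, leaves came from plants stressed from day 15. For recovery, plants were stressed from day 12 for 3 days and then returned to growth conditions for 3 days. Each of the 8 end-points, the 8 recoveries and the single control group, which belongs to the recovery setup, has 3 libraries, 51 in all. The same 3 control libraries serve every comparison with the control. The labels do not say whether replicates were grown separately, and the spread that the p-values rest on may therefore be technical.

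Values are rlog values, a log2 scale, with each library shifted so that all have the same median over the genes tested; they are called aligned rlog here. The shift matters: as deposited, the library median was above the control by 0.73 at the heat-drought end-point, 0.54 in drought, 0.51 under cold with high light, 0.34 for cold alone and 0.13 under high light. Differences are therefore relative to the median. Their standard error (SE) is limma's, with 3 libraries per group and a variance estimated over all groups. It does not show the spread within the groups compared. A gene "rose" or "fell" where limma's adjusted p over all 19010 genes was under 0.05. Read depth is unknown, and levels are not compared between genes because the scale is not per length; where the difference of related genes within a library is given, only its change between groups is read. Replicates had pairwise correlations of 0.980 to 0.998, with 0 identical pairs. The leaf identity of the samples showed in the mesophyll markers RBCS1A, RCA and LHCB3, whose summed level was 19.21 to 19.26 (log2) in the control. The meristem genes WUS and CLV3 had mean values of -2.32 and -1.44 and were not tested. STM, also a meristem gene, had a mean value of 6.20 and was tested, so meristem RNA was not absent. Replicate 2 of the recovery from cold with high light stood apart in marker level. Its summed mesophyll marker level was 15.98, against 19.13 and 19.30 in the other libraries of that group. Correlation over all genes did not single it out, its mean r with its replicates being 0.993. The lowest mean r, 0.983, was that of heat-drought end-point replicate 3. Because all groups share an estimate of spread, the library with the low marker level touches every SEP1, OHP and PSBS test, and results are given without it where it changes a call.

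ELIP1 and ELIP2 had the widest range of the 7 genes: their 17 group means ran from 5.77 to 12.27 and from 4.39 to 10.96, while those of each other gene spanned 0.60 to 1.63 (log2). ELIP1 rose at 5 of 8 end-points and ELIP2 at 2. In the recovery plants, which were other plants stressed from day 12, neither gene passed against the control after 3 days of recovery. Over all 7 genes and 8 end-points, 56 differences, 9 were higher than the control, 6 were lower and 41 did not pass; as deposited the split was 22 higher and 2 lower, since the library medians themselves were raised. Over all genes the share called depended on the stress, from 0.158% to 32.2% higher and from 0.0842% to 46.5% lower across the 8 end-points, and as deposited from 0.568% to 68.2% higher and from 0.0631% to 13.2% lower; the shares stand beside each comparison. Without the library that stood apart the 7 genes gave 11 higher and 8 lower. Over all genes the shares in that fit ran from 0.216% to 32.7% higher and from 0.158% to 47% lower. The map of differences sets these side by side.

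**Figure D1:**
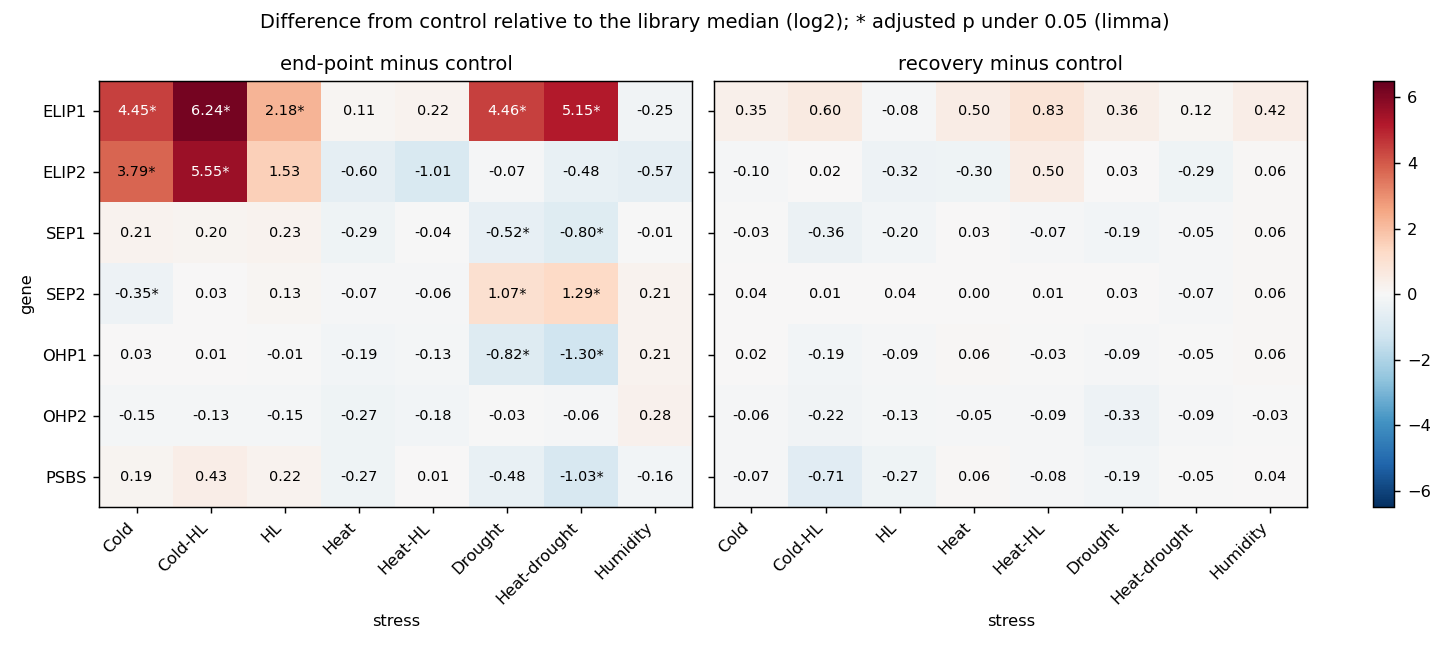
Difference from control of each of the 7 genes (rows) at 8 end-points (left) and 8 recoveries (right), as log2 values after alignment of library medians, 3 libraries per group; an asterisk marks an adjusted p under 0.05 in limma. ELIP1 reaches 6.24 in cold with high light, and no recovery value passes, the range there being -0.71 to 0.83.

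ELIP1 responded strongly to cold. Its aligned rlog was 5.98, 6.10 and 5.99 in the control libraries, 10.56, 10.36 and 10.49 at the end of cold, and 12.37, 12.09 and 12.35 at the end of cold with high light. The 3 groups did not overlap, and their libraries differed little within a group. ELIP1 rose by 4.45 ± 0.52 (SE) in cold, 21.8-fold, and by 6.24 ± 0.52 in cold with high light, 75.8-fold, with adjusted p of 7.13e-08 and 1.38e-11 (limma). In cold with high light no other of the 19010 genes had a larger difference, and in cold ELIP1 ranked 3 from the top.

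ELIP2 also rose in both cold treatments. It stood at 5.88, 4.83 and 5.51 in the control, at 9.39, 9.13 and 9.06 in cold, and at 11.07, 10.65 and 11.16 in cold with high light. Again every cold library was above every control library. The rises were 3.79 ± 0.48 in cold (13.8-fold, adjusted p = 2.71e-07, limma) and 5.55 ± 0.48 in cold with high light (47.0-fold, adjusted p = 3.01e-11). Both ELIPs thus passed in cold, where 18.3% of all genes tested were higher and 21.7% lower, and in cold with high light, where 23.3% were higher and 29.4% lower.

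Cold alone was given at 80 µmol m-2 s-1, and the ELIPs were nevertheless higher there than under 350 µmol m-2 s-1 at the growth temperature. In high light ELIP1 stood at 7.55, 8.33 and 8.74 and ELIP2 at 6.73, 6.81 and 7.25. All 3 libraries lay above the control and below the cold libraries for both genes. ELIP1 rose by 2.18 ± 0.52 against the control (4.54-fold, adjusted p = 0.0298, limma), in a comparison where 0.405% of genes were higher and 0.689% lower; the call was lost when any 1 of the 3 control libraries, or high light replicate 2 or 3, was left out, with a highest adjusted p of 0.154. ELIP2 differed by 1.53 ± 0.48 with an adjusted p of 0.111 in limma, and passed as deposited (1.66, adjusted p = 0.0492). The direct comparison of cold with high light, added after these values were seen, gave a difference of 2.26 ± 0.52 for ELIP1 and 2.26 ± 0.48 for ELIP2, both higher in cold (adjusted p of 0.00124 and 0.000562, limma). In it 15.8% of all genes were higher and 14.4% lower. Temperature and light both differ between these groups.

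More light within the cold raised both ELIPs further. From 80 to 200 µmol m-2 s-1 ELIP1 rose by 1.80 ± 0.52 and ELIP2 by 1.76 ± 0.48, with adjusted p of 0.0472 and 0.0337 (limma), while 1.68% of all genes were higher and 1.63% lower. The libraries of the 2 light levels did not overlap for either gene. These calls sit near the threshold: ELIP1 lost its call when any 1 of the 6 libraries was left out, ELIP2 when any but cold with high light replicate 2 was, and neither passed under quantile normalization. The other 5 genes did not pass in this comparison. Of 7 genes in heat with high light against heat, 0 passed, ELIP1 differing by 0.11 ± 0.52 and ELIP2 by -0.41 ± 0.48, at 0.00526% of genes higher and 0% lower; 0 had an unadjusted p under 0.05.

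Mild heat went with low ELIP levels under high light. In heat with high light ELIP1 stood at 6.48, 5.71 and 6.53 and ELIP2 at 4.35, 3.64 and 5.19, on both sides of the control for ELIP1 and at or below it for ELIP2. The difference from high light alone was -2.54 ± 0.48 for ELIP2 (5.81-fold lower, adjusted p = 0.00462, limma) and -1.96 ± 0.52 for ELIP1 (3.90-fold lower, adjusted p = 0.0471); this comparison was also added after the values were seen. The groups did not overlap for either gene, and 0.647% of all genes were higher and 0.668% lower. The ELIP1 call was lost as deposited (adjusted p = 0.0648, limma) and when any 1 of the 6 libraries was left out, and the ELIP2 call without replicate 2 of heat with high light (adjusted p = 0.0864). The interaction of heat with high light, the test of whether high light acted differently in heat, did not pass: it was -2.08 ± 0.73 for ELIP1 and -1.94 ± 0.68 for ELIP2, each with an adjusted p of 0.42 in limma and unadjusted p of 0.00772 and 0.00721. Only 0.00526% of all genes passed it as lower and 0% as higher. In heat alone ELIP1 spread widely, at 6.34, 4.90 and 7.17, and did not pass (0.11 ± 0.52), nor did ELIP2 (-0.60 ± 0.48).

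**Figure D2:**
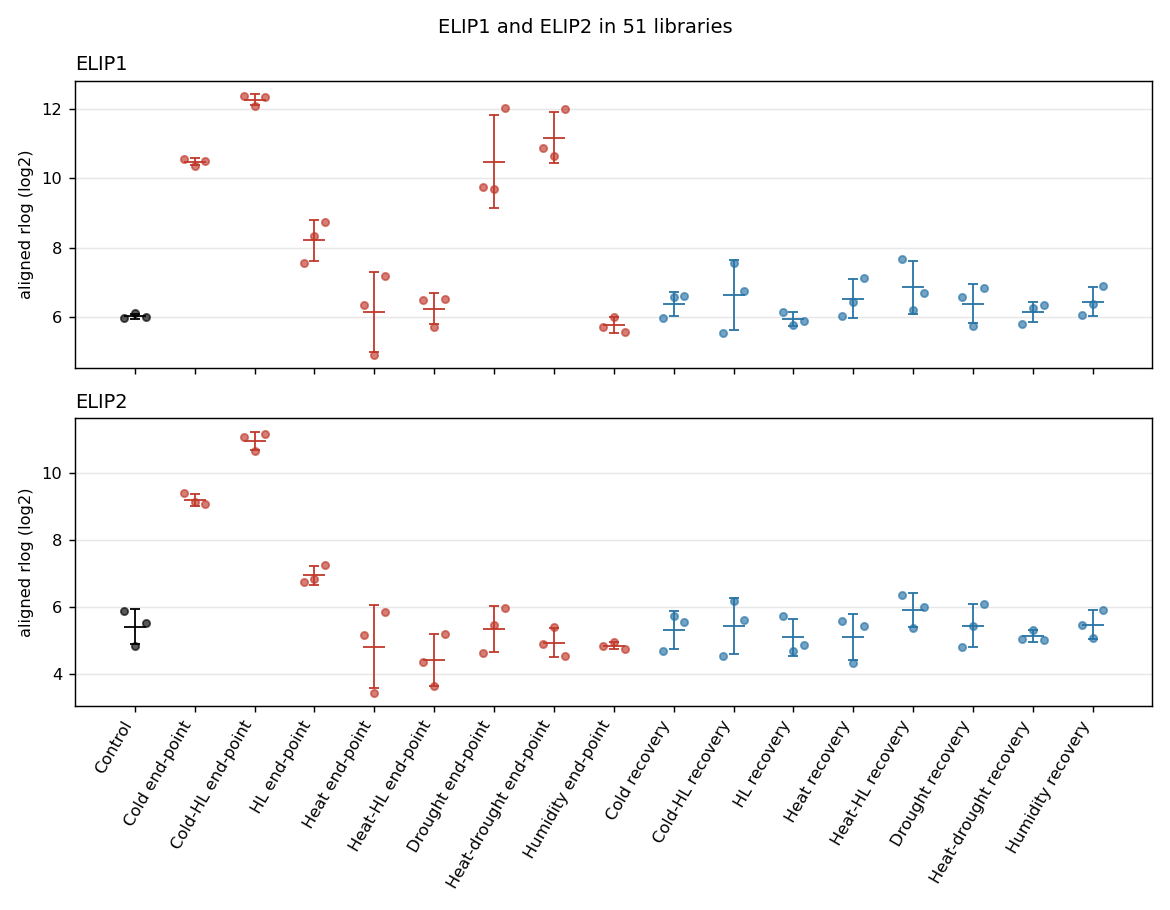
Aligned rlog (log2) of ELIP1 and ELIP2 in all 51 libraries by group; points are libraries, lines the mean and SD of 3 libraries. Both genes are high in both cold treatments, and in drought and heat-drought ELIP1 is at 9.68 to 12.02 while ELIP2 stays at 4.52 to 5.95.

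Drought separated the 2 ELIP genes. ELIP1 stood at 9.74, 9.68 and 12.02 at the end of drought and at 10.88, 10.64 and 11.99 at the end of heat-drought, all above every control library. ELIP2 stood at 4.60, 5.44 and 5.95 in drought and at 4.87, 5.38 and 4.52 in heat-drought, overlapping the control in both. ELIP1 rose by 4.46 ± 0.52 in drought (21.9-fold) and by 5.15 ± 0.52 in heat-drought (35.5-fold), with adjusted p of 4.78e-09 and 6.75e-11 (limma). ELIP2 differed by -0.07 ± 0.48 and -0.48 ± 0.48, with adjusted p of 0.901 and 0.36. Replicate 3 of drought was the highest ELIP1 library of its group by a wide margin, and without it the drought rise of ELIP1 was 3.69 ± 0.51.

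Measured within each library, ELIP1 minus ELIP2 was 0.62 ± 0.60 (SD, n = 3) in the control, 1.27 ± 0.14 in cold and 1.31 ± 0.13 in cold with high light. The libraries of both cold treatments overlapped the control (exact two-sided permutation p of 0.3 and 0.2), so a smaller rise of ELIP2 in cold is not shown. In drought the gap was 5.15 ± 0.91 and in heat-drought 6.25 ± 1.13. The gap therefore widened by 4.53 and 5.63 on the log2 scale, and the libraries of these end-points did not overlap the control. With 3 against 3 libraries the exact two-sided permutation p was 0.1 in both drought and heat-drought, the smallest such a design allows. It was 0.267 after adjustment over the 24 pair comparisons. Heat with high light gave the same permutation p before and after adjustment. The gap there was 1.85 ± 0.45, wider than the control by 1.23 and also without overlap. The coding sequences of ELIP1 and ELIP2 are 588 and 582 bases long and share 78.9% of 564 aligned bases, with a longest identical stretch of 26 bases.

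**Figure D3:**
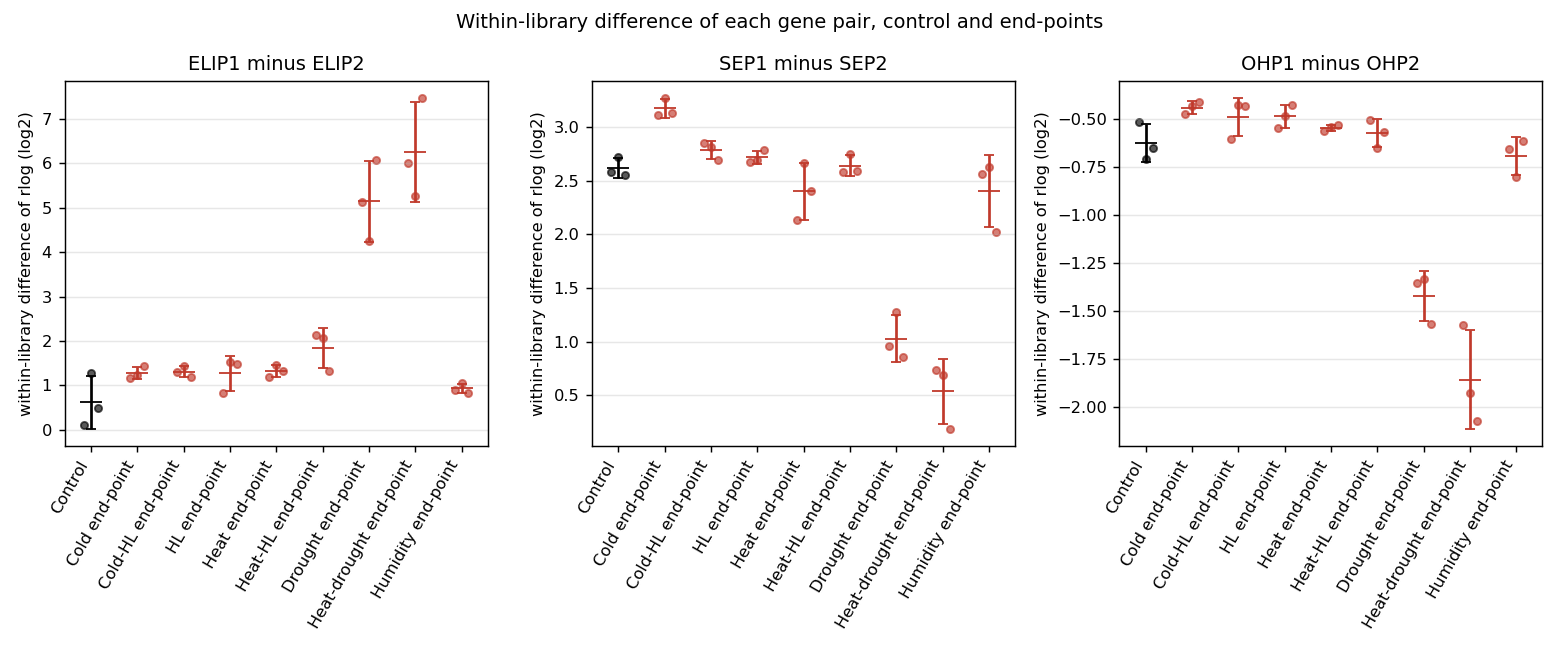
Within-library difference of rlog (log2) for ELIP1 minus ELIP2, SEP1 minus SEP2 and OHP1 minus OHP2 in the control and at 8 end-points; points are libraries, lines the mean and SD of 3 libraries. In drought and heat-drought ELIP1 minus ELIP2 lies between 4.24 and 7.48, SEP1 minus SEP2 between 0.18 and 1.28, and OHP1 minus OHP2 between -2.07 and -1.34, all outside the range of the control.

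The 250 bases before the annotated start of the ELIP genes are shown because the genes part in drought. Both come from the RefSeq annotation of TAIR10.1 (the authors aligned to TAIR10), ELIP1 from chr3:8085670-8085919 on the minus strand, next to the gene at chr3:8084405-8085669, and ELIP2 from chr4:8417992-8418241 on the plus strand, next to the gene at chr4:8418242-8419325. Capitals mark matches, on either strand, to 5 motifs searched in all promoters: the G-box CACGTG, the abscisic acid response element core ACGTG, the cold and dehydration response element core CCGAC, the I-box GATAAG and the evening element AAAATATCT.
ELIP1: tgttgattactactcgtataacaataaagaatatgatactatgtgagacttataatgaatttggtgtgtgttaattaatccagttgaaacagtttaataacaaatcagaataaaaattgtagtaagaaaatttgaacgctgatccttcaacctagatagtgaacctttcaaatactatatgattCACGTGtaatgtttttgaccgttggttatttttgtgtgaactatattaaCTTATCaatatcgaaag
ELIP2: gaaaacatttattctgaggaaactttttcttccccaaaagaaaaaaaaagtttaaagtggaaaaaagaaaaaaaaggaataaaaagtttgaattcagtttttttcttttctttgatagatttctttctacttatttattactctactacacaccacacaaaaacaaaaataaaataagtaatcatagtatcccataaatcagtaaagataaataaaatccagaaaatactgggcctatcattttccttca
ELIP1 holds a G-box at -66 to -61, within which the shorter core ACGTG matches on both strands, and an I-box read on the reverse strand at -17 to -12. ELIP2 holds a match to 0 of the 5 motifs in this window. Over 27443 promoters of the same length, 6.49% hold the G-box, 22.9% ACGTG, 12.3% the I-box, 12.0% CCGAC and 2.36% the evening element. A match describes letters only and says nothing about binding.

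The order of ELIP1 levels was cold with high light (mean 12.27), heat-drought (11.17), drought (10.48), cold (10.47) and high light (8.21). The remaining 12 groups lay between 5.77 and 6.85. Cold with high light was above heat-drought by more than the larger SD of both, as was cold above high light and high light above the next group. Heat-drought, drought and cold did not differ from each other in turn beyond their SDs. For ELIP2 the order was cold with high light (10.96), cold (9.19) and high light (6.93), each apart from the next by more than the larger SD, and then 14 groups between 4.39 and 5.90 in which no neighbours did.

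SEP1 and SEP2 moved in opposite directions in water shortage. SEP2 stood at 9.58, 9.36 and 9.58 in the control, at 10.59, 10.49 and 10.64 in drought and at 10.71, 10.63 and 11.05 in heat-drought. SEP1 stood at 12.16, 12.09 and 12.13 in the control, at 11.54, 11.77 and 11.49 in drought and at 11.44, 11.31 and 11.24 in heat-drought. Neither gene's drought or heat-drought libraries overlapped the control. SEP2 rose by 1.07 ± 0.13 in drought (2.09-fold, adjusted p = 1.43e-09, limma) and by 1.29 ± 0.13 in heat-drought (2.44-fold, adjusted p = 3.77e-12), and rose as deposited too, by 1.60 and 2.02. SEP1 fell by 0.52 ± 0.13 in drought (adjusted p = 0.000753, limma) and by 0.80 ± 0.13 in heat-drought (adjusted p = 1.19e-06). As deposited the SEP1 values were 0.01 and -0.06 and did not pass, so its fall is one relative to the library median. SEP1 minus SEP2 within a library was 2.62 ± 0.09 (SD, n = 3) in the control, 1.03 ± 0.22 in drought and 0.53 ± 0.30 in heat-drought, a difference from which the alignment cancels (exact permutation p = 0.1, the smallest possible).

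In cold the SEP genes also parted, at a smaller size. SEP2 was at 9.21, 9.04 and 9.23, under every control library, and fell by 0.35 ± 0.13 (adjusted p = 0.0244, limma); as deposited it differed by -0.01 and did not pass, and the call was lost without cold replicate 2 or without control replicate 1 or 3. SEP1 was at 12.33, 12.32 and 12.36, above every control library, by 0.21 ± 0.13, which did not pass. The within-library gap grew by 0.56 in cold. SEP2 was lower in cold than in high light by 0.48 ± 0.13 (adjusted p = 0.00363, limma), which did not pass as deposited (-0.27). In high light, heat, heat with high light and humidity neither SEP gene passed, SEP1 ranging from -0.29 to 0.23 and SEP2 from -0.07 to 0.21.

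The SEP2 promoter window (chr2:9357968-9358217, minus strand, beside the gene at chr2:9356983-9357967) is shown because SEP2 was the only other gene of the 7 that rose in drought. Capitals mark the motifs named above.
SEP2: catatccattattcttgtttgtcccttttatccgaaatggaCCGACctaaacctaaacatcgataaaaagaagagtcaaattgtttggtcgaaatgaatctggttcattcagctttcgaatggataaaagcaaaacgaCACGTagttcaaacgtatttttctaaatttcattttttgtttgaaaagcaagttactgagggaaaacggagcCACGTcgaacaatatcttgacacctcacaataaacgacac
It holds CCGAC at -209 to -205 and ACGTG on the reverse strand at -112 to -108 and at -40 to -36. The SEP1 window holds 0 of the 5 motifs. That window lies inside the neighbouring gene AT4G34200, which overlaps the start of SEP1 (chr4:16372333-16373736) by 6 bases on the same strand. AT4G34200 itself differed by -0.35 ± 0.12 in drought and -1.03 ± 0.12 in heat-drought, both passing. SEP2 overlaps AT2G21960 on the opposite strand by 109 bases; whether reads were counted by strand is not given. AT2G21960 differed by 0.07 ± 0.11 in drought and -0.02 ± 0.11 in heat-drought and did not pass.

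**Figure D4:**
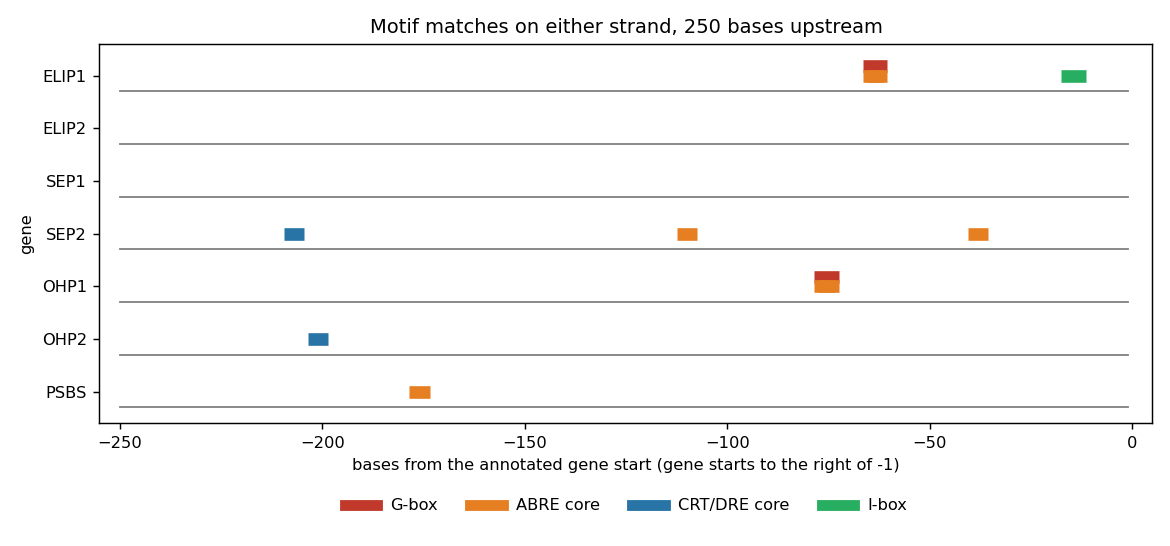
Positions of motif matches on either strand in the 250 bases before the annotated start of the 7 genes, in bases from the start. ELIP1 and OHP1 hold a G-box (red) with its inner core (orange) at -66 and -78, SEP2 holds 2 further cores, and ELIP2 and SEP1 hold no match.

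OHP1 fell in drought while its partner OHP2 did not. OHP1 stood at 10.79, 10.56 and 10.69 in the control, at 9.95, 9.97 and 9.66 in drought and at 9.67, 9.35 and 9.13 in heat-drought. OHP2 stood at 11.31, 11.27 and 11.34 in the control, at 11.30, 11.31 and 11.23 in drought and at 11.25, 11.28 and 11.21 in heat-drought. All OHP1 stress libraries were under the control, whereas OHP2 overlapped it. OHP1 fell by 0.82 ± 0.12 in drought (1.77-fold, adjusted p = 1.64e-07, limma) and fell by 1.297 ± 0.12 in heat-drought (2.46-fold, adjusted p = 1.24e-12), and it also fell as deposited, by 0.29 and 0.56. OHP2 differed by -0.03 ± 0.11 and -0.06 ± 0.11 relative to the median, and as deposited it was higher by 0.51 and 0.67, both passing. The within-library difference of OHP1 minus OHP2 went from -0.63 ± 0.10 (SD, n = 3) in the control to -1.42 ± 0.13 in drought and -1.86 ± 0.26 in heat-drought, and the alignment cancels here too (exact permutation p = 0.1, the smallest possible).

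Adding heat to drought lowered OHP1 further, by 0.47 ± 0.12 (adjusted p = 0.00187, limma), in a comparison added after the values were seen in which 20.4% of all genes were higher and 23.8% lower. The groups overlapped slightly, the lowest drought library being at 9.66 and the highest heat-drought library at 9.67. ELIP1 differed by 0.69 ± 0.52 there and did not pass (adjusted p = 0.281, limma), but by 1.46 with an adjusted p of 0.0176 without drought replicate 3. PSBS differed by -0.54 and SEP1 by -0.27 there, and both passed only without the library that stood apart (adjusted p of 0.000185 and 0.014, limma) or, for PSBS, without heat-drought replicate 1 or drought replicate 3. Over all genes, 21.7% were higher and 25.6% lower in the fit without the library that stood apart. The interaction of heat with drought was called for 0 of the 7 genes, 0 of them at an unadjusted p under 0.05, at 7.97% of all genes higher and 8.22% lower; as deposited OHP2 passed it, at 0.34 (adjusted p = 0.0451, limma).

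OHP1 (chr5:419091-419773) overlaps AT5G02130 by 116 bases and OHP2 (chr1:12357910-12358966) overlaps AT1G33990 by 122 bases, each on the opposite strand, as does the long non-coding gene AT1G06717 inside OHP2. AT5G02130 rose by 0.34 ± 0.10 in drought (adjusted p = 0.00196, limma) and did not pass in heat-drought (0.12 ± 0.10). AT1G33990 did not pass in drought (0.09 ± 0.07) and fell by 0.20 ± 0.07 in heat-drought (adjusted p = 0.0123, limma). OHP1 has a G-box at -78 to -73, again holding ACGTG on both strands, and OHP2 has CCGAC at -203 to -199. In high light, heat, heat with high light and humidity OHP1 did not pass, its differences running from -0.19 to 0.21. In humidity OHP2 was at 11.48, 11.52 and 11.75, above every control library, by 0.28 ± 0.11, and in heat at 10.97, 11.02 and 11.11, below every control library, by -0.27 ± 0.11. Neither passed in limma over all 51 libraries, but both passed without replicate 2 of the recovery from cold with high light, with adjusted p of 0.0145 and 0.0359. With all 51 libraries 3.58% of all genes were higher and 2.31% lower in humidity, and 0.368% and 0.431% in heat. Without that replicate the shares were 4.41% and 3.02% in humidity, and 0.805% and 1.78% in heat. In heat with high light, where 0.158% of genes were higher and 0.0842% lower, 0 of the 7 genes passed.

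**Figure D5:**
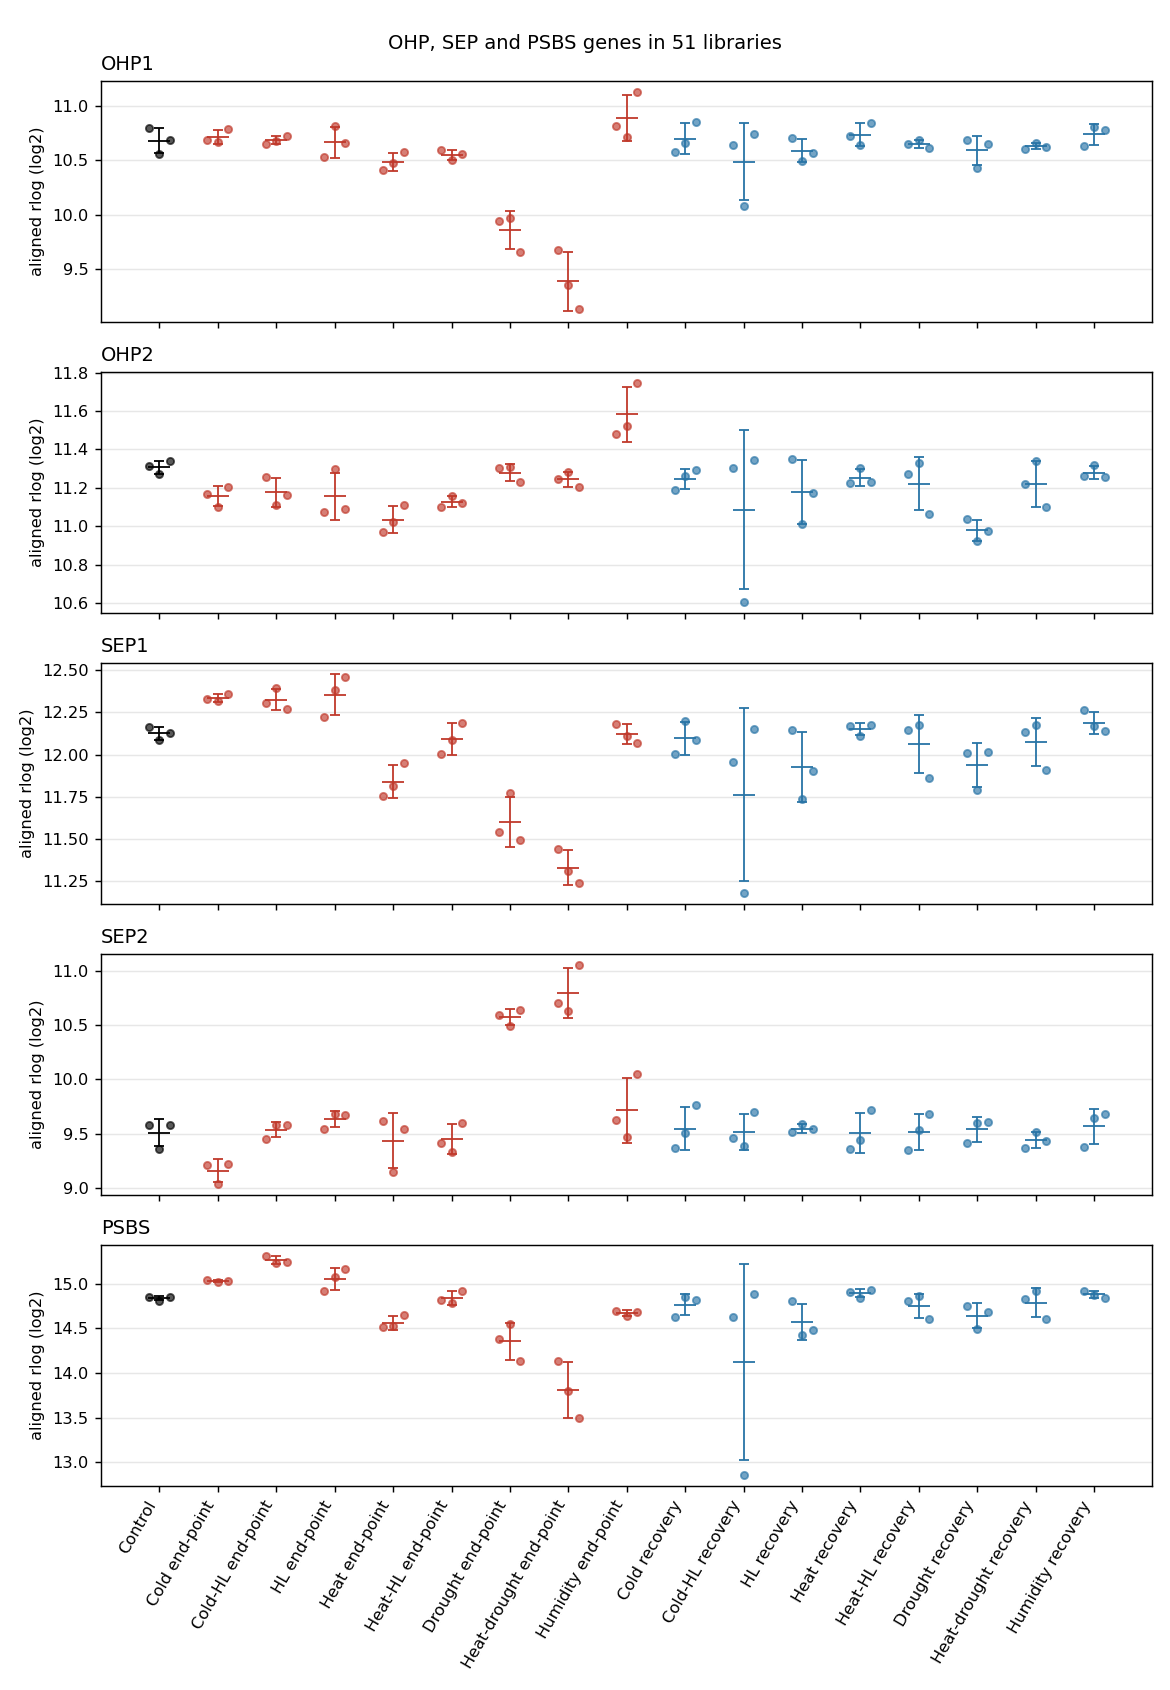
Aligned rlog (log2) of OHP1, OHP2, SEP1, SEP2 and PSBS in all 51 libraries by group, each gene on its own scale; points are libraries, lines the mean and SD of 3 libraries. OHP1, SEP1 and PSBS have their lowest group mean in heat-drought, where SEP2 has its highest, and replicate 2 of the recovery from cold with high light lies far below its group for PSBS (12.86), SEP1 (11.18), OHP2 (10.61) and OHP1 (10.08).

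PSBS was lower in heat-drought. It stood at 14.85, 14.81 and 14.85 in the control, at 14.13, 13.80 and 13.50 in heat-drought and at 14.38, 14.55 and 14.13 in drought. No library of either stress reached the control. PSBS fell by 1.03 ± 0.24 in heat-drought (2.04-fold, adjusted p = 0.000218, limma) and differed by -0.48 ± 0.24 in drought, which did not pass (adjusted p = 0.0767); as deposited the values were -0.29 and 0.06, neither passing. In cold with high light it stood at 15.31, 15.24 and 15.24, the highest PSBS values of the 51 libraries used, 0.43 ± 0.24 above the control (adjusted p = 0.138, limma). The wide SE comes with a single library: without replicate 2 of the recovery from cold with high light the same differences of -0.48 and 0.43 had an SE of 0.11 and passed, with adjusted p of 0.000269 and 0.00145 (limma). In that fit 25.9% of all genes were higher and 43.2% lower in drought, and 24.3% and 30.5% in cold with high light. As deposited PSBS was higher in cold with high light by 0.94. Its promoter window holds ACGTG on the reverse strand at -178 to -174.

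In drought 25.3% of all genes were higher and 42.2% lower, and in heat-drought 32.2% and 46.5%, so a fall there is common. Of the 7 genes, 2 were higher and 2 lower in drought and 2 and 3 in heat-drought. The leaf markers moved in the same groups. All 3 mesophyll markers fell in heat-drought and 2 of 3 in drought, with a summed level of 17.68 to 18.43 (log2) in drought and 16.70 to 17.60 in heat-drought against 19.21 to 19.26 in the control; as deposited 3 of 3 and 1 of 3 fell. Of 5 guard cell markers 4 fell in each. The sum of the 5 was 10.27 to 10.28 in the control, 9.36 to 9.69 in drought and 9.04 to 9.40 in heat-drought. KAT1 and HT1 fell in cold and in cold with high light too. As deposited KAT1 still fell in both, by 0.29 each, but HT1 was at 0.007 and -0.0003 and did not pass. As deposited MYB60, KAT1, HT1 and FAMA fell in drought, and all of these but FAMA (-0.02) in heat-drought. The sum of the 3 phloem markers was 12.87 to 12.95 and 12.99 to 13.16 against 12.31 to 12.51 in the control, and SUC2, a sucrose transporter, rose in both while SEOR1, a sieve element protein gene, fell by 0.48 ± 0.10 in heat-drought; as deposited all 3 markers rose in both. The part of these shifts in the OHP1, SEP1 and PSBS values was not tested. In whole rosettes fewer cells of a type and less RNA of the marker genes per cell cannot be told apart.

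The antenna proteins proper, relatives that collect light, fell in most members in cold with high light and in heat-drought. Of 21 antenna genes, 2 were higher and 15 lower in the former and 1 and 19 in the latter, against 1 and 2 in cold and 1 and 8 in drought. Their medians were -0.93 and -1.66, and -0.48 and -0.50, where those of all genes were -0.05 and -0.15, and -0.04 and -0.13. Of all genes tested, the shares that rose and fell were, in this order, 23.3% and 29.4%, 32.2% and 46.5%, 18.3% and 21.7%, and 25.3% and 42.2%. The count of antenna genes that fell was near this share in drought and under it in cold. As deposited the antenna counts were 3 and 5, 2 and 12, 3 and 0, and 3 and 3. The deposited shares of all genes were 68.2% and 2.53%, 66.7% and 13.2%, 54.2% and 2.17%, and 61.4% and 9.57%. In heat-drought LHCB2.3 fell by 3.101 ± 0.35 and LHCB1.4 fell by 2.86 ± 0.27, both subunits of the major photosystem II antenna, whose near-identical copies are uncertain as single genes. LHCB7 rose by 1.098 ± 0.12 in drought. LHCB4.3, a minor antenna protein, was the only antenna gene to pass in high light, rising by 1.28 ± 0.17, and it rose with added light both in the cold (0.83 ± 0.17) and in heat (1.03 ± 0.17). Of 3 further antenna-like proteins FC2, a ferrochelatase with an antenna-like domain, rose by 0.32 ± 0.10 in cold with high light and fell by 0.48 ± 0.10 in its recovery, and did not pass at the other end-points. LIL3.1, which supports chlorophyll synthesis, fell by 1.27 ± 0.15 in drought and by 1.78 ± 0.15 in heat-drought, while LIL3.2 fell by 0.50 ± 0.15 and by 0.96 ± 0.15, neither of which passed as deposited (0.04 and -0.23).

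Of 15 genes of light signalling, 5 were higher and 4 lower under cold with high light, beside 23.3% and 29.4% of all genes (median -0.05 against -0.05 over all genes), 7 and 2 in drought, beside 25.3% and 42.2% (0.12 against -0.13), and 8 and 3 in heat-drought, beside 32.2% and 46.5% (0.30 against -0.15). As deposited the counts were 11 and 0, 12 and 0, and 14 and 0. Over all genes the deposited shares, higher and lower, were 68.2% and 2.53%, 61.4% and 9.57%, and 66.7% and 13.2%. CHS, the chalcone synthase that opens flavonoid synthesis, rose by 2.07 ± 0.22 in cold, 3.18 ± 0.22 under cold and high light combined, 1.98 ± 0.22 in drought, 1.04 ± 0.22 in heat-drought and 0.95 ± 0.22 in high light, and fell by 1.07 ± 0.22 in humidity. HYH, a homologue of the light regulator HY5, rose by 1.202 ± 0.22 in cold with high light. SIG5, a plastid sigma factor, fell by 1.01 ± 0.20 in cold and rose by 1.68 ± 0.20 in drought and by 2.21 ± 0.20 in heat-drought, and the B-box protein genes BBX22 and BBX30 rose in drought by 1.11 ± 0.13 and 1.13 ± 0.16. In the cold, added light raised CHS by 1.11 ± 0.22 and RUP2, a repressor of ultraviolet-B signalling, by 0.75 ± 0.12.

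Of 14 genes of photosystem II assembly and repair, the process OHP1 and OHP2 serve, 3 were higher and 7 lower in both drought and heat-drought. These counts were near the shares of all genes, which were 25.3% and 42.2% in drought and 32.2% and 46.5% in heat-drought. The medians were -0.36 and -0.32 against -0.13 and -0.15 over all genes. As deposited the counts were 6 and 1, and 8 and 1. Over all genes the deposited shares were 61.4% and 9.57% in drought and 66.7% and 13.2% in heat-drought. FTSH8, a subunit of the thylakoid protease that removes damaged D1 protein, rose by 1.55 ± 0.12 and by 2.04 ± 0.12. HCF244, which acts in a complex with OHP1 and OHP2, fell by 0.59 ± 0.14 and by 1.02 ± 0.14, as OHP1 did; as deposited it was at -0.05, which did not pass, and -0.28, which did. PAM68, an assembly factor, fell by 0.73 ± 0.09 in drought, and HCF136, another, fell by 0.92 ± 0.16 in heat-drought, which did not pass as deposited (-0.19). Among 13 genes of energy quenching and electron flow control, 4 were higher and 3 lower in drought and 4 and 4 in heat-drought. The medians were -0.04 and -0.13. As deposited the counts were 9 and 0, and 10 and 0. Both sets of counts are to be read against the aligned and deposited shares given above. PGRL1B, of cyclic electron flow, rose by 1.04 ± 0.09 in drought and by 1.67 ± 0.09 in heat-drought and fell by 1.07 ± 0.09 in cold. LCNP, the plastid lipocalin of sustained quenching, rose by 0.88 ± 0.15 in cold.

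After 3 days back in growth conditions, 0 of 56 differences from the control passed in limma, relative to the median or as deposited. At an unadjusted p under 0.05 there were 4, 2 of OHP2 and 1 each of SEP1 and PSBS, all lower, and the lowest adjusted p was 0.188. Across all genes 0% passed in any of the 8 recoveries, so this holds for the transcriptome as it does for these genes. ELIP1 stood between 5.55 and 7.68 in the 27 control and recovery libraries and ELIP2 between 4.32 and 6.36. The widest ELIP difference was 0.83 ± 0.52 for ELIP1 after heat with high light, where its libraries read 7.68, 6.19 and 6.69. SEP2 was the steadiest, with recovery differences from -0.07 to 0.06.

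The recoveries were also set against their own end-points. Of 56 differences 6 were higher and 13 lower, and as deposited 2 and 23; without the library that stood apart it was 8 and 17. Over all genes 0.0421% to 45.9% were higher and 0.142% to 32.1% lower across the 8 recoveries, and as deposited up to 66.2% were lower. Without the library that stood apart the shares ran from 0.0842% to 46.4% higher and from 0.237% to 32.7% lower. ELIP1 differed by -4.09 ± 0.52 after cold, -5.64 ± 0.52 after cold with high light, -4.09 ± 0.52 after drought, -5.03 ± 0.52 after heat-drought and -2.27 ± 0.52 after high light, all passing. ELIP2 differed by -3.89 ± 0.48 after cold, -5.54 ± 0.48 after cold with high light and -1.85 ± 0.48 after high light (adjusted p = 0.0353, limma), all passing too. In the recovery from high light no gene of the 19010 had a larger fall than ELIP1, in a comparison where 0.473% of genes were higher and 1.37% lower. The ELIP1 call after high light was lost without any 1 of 4 of the 6 libraries (end-point or recovery replicates 2 and 3), the ELIP2 call also without end-point replicate 1, with adjusted p up to 0.206.

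Against the end-points OHP1 rose by 0.73 ± 0.12 after drought and by 1.25 ± 0.12 after heat-drought, and SEP1 by 0.34 ± 0.13 and 0.74 ± 0.13. The SEP1 call after drought was lost when end-point replicate 1 or 3 or recovery replicate 1 or 3 was left out, with adjusted p of 0.0793 to 0.11 (limma). SEP2 fell by 1.03 ± 0.13 and by 1.35 ± 0.13. PSBS rose by 0.98 ± 0.24 after heat-drought. In these recoveries 39.3% of all genes were higher and 24.6% lower after drought, and 45.9% and 32.1% after heat-drought. OHP2 fell by 0.30 ± 0.11 after drought without having passed at the end-point, its libraries reading 11.04, 10.93 and 10.97, all below the control; the call was lost without recovery replicate 2 (adjusted p = 0.0518, limma). In the recovery from cold, where 20.8% of genes were higher and 17.3% lower, SEP2 rose by 0.39 ± 0.13, a call lost without end-point replicate 2 (adjusted p = 0.0732, limma) or recovery replicate 3 (adjusted p = 0.118). For all 15 end-point calls the recovery passed against the end-point in the opposite direction. The same end-point libraries enter both comparisons, so this count is largely set by how the calls were chosen. It is not a separate result about these genes, and the share over all genes called at an end-point was not computed.

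The recovery from cold with high light needs its libraries side by side. PSBS read 14.62, 12.86 and 14.88, SEP1 11.96, 11.18 and 12.15, OHP2 11.31, 10.61 and 11.35, and OHP1 10.65, 10.08 and 10.74. For PSBS, SEP1 and OHP2 replicate 2 was the lowest of the 51 libraries, and for OHP1 the lowest of the 27 control and recovery libraries, while its ELIP1 value of 7.56 was the highest of its group. PSBS fell against the end-point by 1.14 ± 0.24 with all libraries and by 0.51 ± 0.13 without replicate 2, and SEP1 by 0.56 ± 0.13 and 0.27 ± 0.10, all passing in limma; 32.2% of all genes were higher there and 27.1% lower. Against the control PSBS differed by -0.71 ± 0.24 with all libraries and by -0.08 ± 0.13 without replicate 2, and passed at -1.09 ± 0.23 without replicate 3, as SEP1 did at -0.56 ± 0.13. In the recoveries from humidity, heat and heat with high light 0 of 7 genes passed, where 2.98% and 4.57%, 0.405% and 0.352%, and 0.0421% and 0.142% of all genes were higher and lower. Without replicate 2 of the recovery from cold with high light, 6 further calls appeared among all recoveries: SEP1 and PSBS fell after high light (-0.43 and -0.48), SEP1 fell after cold (-0.24) and rose after heat (0.31), PSBS rose after drought (0.29), and OHP2 fell after humidity (-0.30). Calls over all genes were more frequent in that fit too. The shares higher and lower were 0.963% and 3.52% after high light, 22% and 18.8% after cold, and 2.36% and 0.936% after heat. They were 40.2% and 25.3% after drought and 3.9% and 5.47% after humidity. ELIP2 after heat with high light had the largest positive difference of all genes, 1.51 ± 0.48, with an adjusted p of 0.219 (limma).

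Similarity over the 17 group means is described by Pearson's r; the genes share their libraries, and 1 of the 17 means holds the library that stood apart. PSBS and SEP1 followed each other (r = 0.95), as did OHP1 with SEP1 (0.87) and with PSBS (0.77), while OHP1 ran opposite to SEP2 (-0.90). ELIP1 and ELIP2 reached 0.70. OHP2 had r between -0.14 and 0.26 with every other gene of the 7. Among all genes tested, those with the most similar profile to OHP1 were CYP38, a lumen protein of photosystem II assembly (r = 0.991), AT2G03350 and AIR9. SEP1 was nearest to CLPP4, a subunit of the plastid Clp protease (0.983), and SEP2 to AT4G13010 (0.983), FTSH8 (0.982) and AT1G50020. ELIP1 was nearest to AT5G17010 (0.986), AT2G16890 and AT3G01820, ELIP2 to FLS1, a flavonol synthase (0.960), AT1G54220 and AT1G15470, and PSBS to AT3G60750 (0.983). For OHP2 the highest was 0.829, for CER2, a gene of wax synthesis.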

How the data were processed

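RNA-seq of rosette leaves was used in the form the authors deposited, one file of rlog values, a log2 scale that pulls weakly expressed genes towards their mean. Trimmomatic, STAR, featureCounts and DESeq2 with build TAIR10 are named in the submitters' processing notes; versions and strand setting are not given in the sources used here. Of the columns, 51 were matched by name to samples in 17 groups of 3; a further 6 per-sample columns had no name match and were not used, so heat-drought with high light was not analysed here. Testing was limited to genes whose mean rlog reached 3, which were 19010 of 28775. Each library was aligned on its median over these genes. Limma 3.58.1 in R 4.3.3 (data.table package, version 1.17.8) was fitted over all 51 libraries with 1 mean per group, intensity trend and robust variances; p-values are two-sided with Benjamini-Hochberg adjustment per comparison over all genes, 31 comparisons in all, at 0.05. The procedure was tested on simulated data first. Depth is unknown, so no counting interval is given. Deviations of same-numbered libraries from their group means correlated over 0.1 in every pair only for heat, high light and heat with high light end-points with the control (0.16 to 0.43). Pairs of related genes were compared by within-library differences with exact permutation tests. Locations, promoters of 250 bases and coding identity were taken from RefSeq TAIR10.1 with Biopython 1.88; sequences are those of the reference. Figures used matplotlib 3.10.9, Python 3.11.15, pandas 2.3.3 and numpy 2.4.6.

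The 7 genes and all lists were chosen with earlier results of these data known. Named from each list were up to 4 genes with the largest difference among those called, and for each of the 7 genes the 3 with the highest r over group means. Cold against high light, heat-high light against high light, and heat-drought against drought were added after the values were seen, as was leaving out replicate 2 of the recovery from cold with high light everywhere. Alternatives were values as deposited, quantile normalization, no filter on low values, a mean of at least 5, a fit on the groups compared only, a replicate block, no trend or robust variances, and each library left out in turn.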

Additional observations from a re-analysis of the deposited data

How the results depend on the processing

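Counts of the 7 genes' differences at the end-points, 9 higher and 6 lower, became 22 and 2 as deposited; lower calls were 10 under quantile normalization and 12 in fits on the groups compared only. For recovery against the end-point, 6 higher and 13 lower, the counts as deposited were 2 and 23. Recovery against control gave 0 calls except 1 lower in fits on the groups compared only. Added high light gave 2 higher, 0 under quantile normalization and 4 in fits on the groups compared only. Leaving out each library in turn gave 8 to 11 higher and 5 to 8 lower at the end-points, 0 higher and 0 to 2 lower in recovery against control, 5 to 8 higher and 11 to 17 lower in recovery against end-point, and 0 to 2 higher and 0 lower for added high light. The ELIP1 minus ELIP2 gap widened by 4.07 to 4.98 in drought and 5.02 to 6.13 in heat-drought.

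Among differences that passed in either fit, directions that turned as deposited were those of OHP2 in cold with high light (0.38), drought (0.51), heat-drought (0.67) and recovery from cold against its end-point (-0.25), and of SEP1 in drought (0.013) and in its recovery (-0.080). Other differences that passed in neither fit also changed sign, PSBS in drought among them. Under quantile normalization, recovery from cold with high light against its end-point turned for OHP2 (0.37) and SEP1 (0.097). Alignment subtracts the library median, which makes the difference as deposited; the cause under quantile normalization was not tested.

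Every same-number correlation was over 0.1 in 3 of 24 pairs of groups. These were the heat, high light and heat with high light end-points, each with the control. Over all pairs r ran from -0.73 to 0.43, and for the high light end-point with its recovery all were negative (-0.73, -0.37 and -0.41). Whether replicate numbers pair the libraries in those 3 comparisons was not tested. With the replicate block ELIP1 in high light had an adjusted p of 0.0144 and ELIP2 of 0.083 (limma), and no call in these 3 comparisons, in heat with high light against heat or high light, or in the heat by high light interaction changed. Elsewhere the block changed 1 call of a single gene, SEP2 in cold with high light against cold (0.38, adjusted p = 0.0242 in limma), and gave 9 higher and 6 lower end-point differences. Depth is unknown, and rlog understates changes of weakly expressed genes. With 3 libraries per group and a single control group, high light calls rest on few libraries.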
